A study of Mus musculus with 30 samples.

Results

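Nat1, Nat2 and Nat3 are the mouse arylamine N-acetyltransferase genes, 3 of 30142 genes that could be read from the arrays of this series. They were chosen by their measured values in one contrast: Nat1 and Nat2 both had higher signals in blastocysts grown in GM501 than in undivided controls, and Nat3 was added as the remaining member of the family. Each gene was read from its 1 transcript cluster with a single gene symbol. The difference of Nat1 and Nat2 between GM501 twins and controls is therefore given as a description and carries no test.

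The arrays held RNA of 30 single mouse blastocysts from B6C3F1 x CD1 matings. GM501 twins (n = 10) grew from 1 blastomere of an embryo divided at the 2-cell stage and cultured alone in GM501 CULT, a medium for assisted reproduction. SAGE 1-Step twins (n = 10) grew from the sister blastomeres in SAGE 1-Step, another such medium, so that each pair number names 1 embryo of origin. KSOM(aa) controls (n = 10) were undivided embryos that stayed in KSOM(aa), a medium for mouse embryos, and were likewise cultured singly. In all 3 groups zygotes were taken from oviducts after stimulation with PMSG and hCG, kept in KSOM(aa) up to the 2-cell stage, and lysed as blastocysts at 4 days post coitum (Theiler stage 5, 96 h in culture). Twins had about 40 to 50 cells and controls about 80, per the labels. Medium, division and cell number all separate twins from controls and cannot be told apart there. Each array measured a whole embryo, so fewer cells of a type and less RNA per cell cannot be told apart either.

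Arylamine N-acetyltransferases move an acetyl group from acetyl-CoA to the nitrogen of aromatic amines and hydrazines, which inactivates some drugs and takes part in the handling of amine carcinogens. In the mouse, the Nat2 enzyme also acetylates para-aminobenzoylglutamate, a breakdown product of folate. Nat1 acts on drug substrates such as isoniazid, and little activity is known for Nat3. The 3 genes lie side by side on chromosome 8 (GRCm38.p6). Nat1 spans 67490968 to 67492531, Nat2 67494875 to 67502644 and Nat3 67523854 to 67548627. Only 2343 bases separate Nat1 from Nat2, and 21209 separate Nat2 from Nat3.

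All values are log2 signals after RMA, a summary of the probes of a cluster that is relative within that cluster, so levels are compared between samples and not between genes. The array medians over all clusters ran from 4.59 to 5.28 in GM501 twins, 4.57 to 5.22 in SAGE twins and 4.59 to 4.69 in controls. In pairs 1 to 6 both twins lay above every control in median, and in pairs 7 to 10 they did not, except for the SAGE twin of pair 8 at 5.12. No label names a batch, and the main results with controls are also given by set of pairs. Across the 18091 genes kept for testing the median difference from controls was 0.11 in both twin groups. Centring each array on its median turned it to -0.13, and the genes called higher and lower in SAGE twins became 260 and 3126 in place of 1356 and 1562. In GM501 twins they became 258 and 2285 in place of 1232 and 1261. Markers of the labelled tissue were present: the trophectoderm keratin Krt18 averaged 17.7, 17.6 and 18.0, and the pluripotency factor Nanog 12.9, 12.4 and 14.0 (GM501 twins, SAGE twins, controls). Each had the highest mean of its marker list, while Fgf4 averaged 4.59 in SAGE twins and Esrrb 5.17 in controls. All 7 trophectoderm markers were called lower than in controls in both twin groups, and the part of this in the Nat results was not tested. In pairs 7 to 10, 1 of the 7 was called lower in GM501 twins and 0 in SAGE twins. Other lineages also had negative medians. For 7 epiblast and inner cell mass markers the median difference was -0.34 in GM501 twins (1 called higher, 0 lower) and -0.62 in SAGE twins (0 higher, 3 lower). For 4 primitive endoderm markers it was -0.34 and -0.45, with 1 called lower in each twin group. Markers of oviduct, cumulus and blood cells, 7 of 9 measured, averaged 4.75 to 5.49 per array in GM501 twins, 4.70 to 5.57 in SAGE twins and 4.79 to 5.16 in controls. Of these, 4 lay above the level of 4.80 under which genes were left out, and Cd68, a macrophage gene, averaged 6.42 in GM501 twins and 6.39 in controls.

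Nat1 ran from 4.68 to 8.43 with a median of 6.38 in GM501 twins, from 4.07 to 7.28 with a median of 4.92 in SAGE twins, and from 4.08 to 5.58 with a median of 4.58 in controls. All 10 GM501 twins lay above the controls' median and 7 above the highest control. Among SAGE twins, 8 lay above the controls' median, 3 above the highest control (pairs 2, 3 and 6) and 1 below the lowest. The groups overlapped, and the means fell in the order GM501, SAGE, controls at 6.54 ± 1.35, 5.27 ± 1.05 and 4.70 ± 0.47 (SD, n = 10 each). The mean of controls lay under 4.80, the level at which genes were kept. Folds and SD ratios of Nat1 against controls therefore stand on a low baseline.

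Nat2 ran from 4.80 to 11.1 with a median of 7.02 in GM501 twins, from 4.72 to 9.50 with a median of 5.88 in SAGE twins, and from 4.80 to 6.74 with a median of 5.30 in controls. In GM501 twins 6 of 10 lay above the highest control, and in SAGE twins 3 of 10 did, again those of pairs 2, 3 and 6. The lowest GM501 twin, at 4.80, was as low as the lowest control, and 1 SAGE twin, at 4.72, lay below that control. GM501 twins averaged 7.56 ± 2.13, SAGE twins 6.29 ± 1.54 and controls 5.54 ± 0.65 (SD, n = 10 each).

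Nat3 had a mean over all arrays of 4.64, under the level at which genes were kept. It ran from 4.24 to 5.29 with a median of 4.83 in GM501 twins, from 4.07 to 5.41 with a median of 4.70 in SAGE twins, and from 4.23 to 4.75 with a median of 4.40 in controls. Its means were 4.80 ± 0.37, 4.67 ± 0.44 and 4.46 ± 0.16 in the same order (SD, n = 10 each). In GM501 twins 5 of 10 lay above the highest control and 0 below the lowest. In SAGE twins 4 of 10 lay above the highest control and 3 below the lowest.

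**Figure D1:**
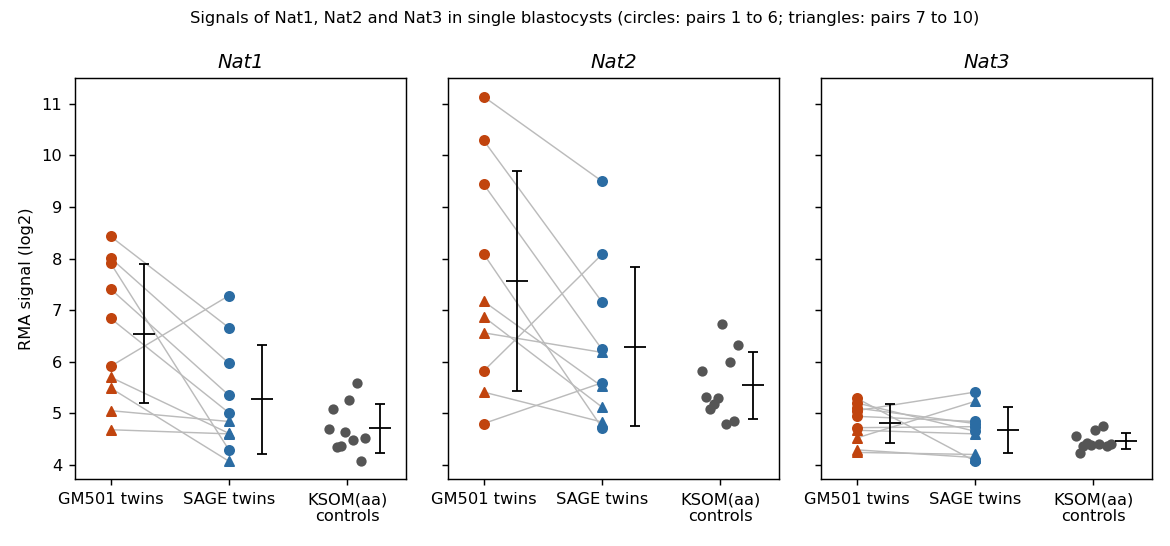
Log2 RMA signals of Nat1, Nat2 and Nat3 (panels) in single blastocysts of the 3 groups; grey lines join co-twins, circles are pairs 1 to 6, triangles pairs 7 to 10, and bars give the mean ± SD (n = 10 each). The 7 GM501 twins above the highest control of 5.58 for Nat1 include all of pairs 1 to 6, while Nat3 stays between 4.07 and 5.41 throughout.

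In GM501 twins the mean difference from controls was 1.84 ± 0.42 for Nat1 and 2.02 ± 0.66 for Nat2 (log2 ± SE, n = 10 each), or 3.58-fold and 4.06-fold. These are the values that chose the genes, and that of Nat1 stands against a low mean in controls. Over all genes kept, limma called 6.81% higher and 6.97% lower in this contrast. In pairs 1 to 6 Nat1 differed by 2.71 ± 0.32 and Nat2 by 2.72 ± 0.75 (log2 ± SE, 6 twins). In pairs 7 to 10 the differences were 0.53 ± 0.26 and 0.96 ± 0.37 (log2 ± SE, 4 twins). With arrays centred on their medians they were 1.60 ± 0.39 for Nat1 and 1.78 ± 0.66 for Nat2.

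Nat3 was not picked for its values and was tested in the same contrast, in a fit over all 30142 genes because it fell below the level of the genes kept. Its difference was 0.34 ± 0.13 (log2 ± SE, n = 10 each, 8 of 10 twins above the controls' median) and did not pass (limma, Benjamini-Hochberg adjusted p = 0.0558). It was 0.59 ± 0.093 in pairs 1 to 6, called at an adjusted p of 8.16e-05, and -0.028 ± 0.10 in pairs 7 to 10 (adjusted p = 0.951). After centring of the arrays it was 0.10 ± 0.090 (adjusted p = 0.494). The value in pairs 7 to 10 was thus smaller than its SE. Calls were common in pairs 1 to 6, where 10743 of the 18091 genes kept were called, 6927 of them higher. These pairs were set apart by array medians above every control, and no fit with centred arrays was run within them. The p-value there therefore cannot tell a rise of Nat3 from the level of the arrays.

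The SAGE arrays played no part in the choice, although the controls they are set against did. SAGE twins also share their embryos of origin with the GM501 twins, so these arrays are not fully independent of the choice. Nat1 differed from controls by 0.56 ± 0.34 and Nat2 by 0.75 ± 0.49 (log2 ± SE, n = 10 each), or 1.48-fold and 1.69-fold. Neither passed the limma test, at adjusted p = 0.216 for Nat1 and 0.250 for Nat2, in a comparison in which 7.5% of genes were called higher and 8.63% lower. Without the SAGE twin of pair 3 the difference of Nat1 was 0.34, and without that of pair 2 the difference of Nat2 was 0.40. The 95% confidence interval of the difference, over all 10 twins, reached from -0.15 to 1.28 for Nat1 and from -0.27 to 1.78 for Nat2. Nat3 differed by 0.21 ± 0.15 (adjusted p = 0.240, fit over all genes).

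The values depended on the set of pairs. In the SAGE twins of pairs 1 to 6, Nat1 was higher by 1.06 ± 0.36 (adjusted p = 0.0193) and Nat2 by 1.34 ± 0.55 (adjusted p = 0.0458; limma, 6 twins against 10 controls). In those of pairs 7 to 10 the differences were -0.17 ± 0.24 and -0.13 ± 0.35 (adjusted p = 0.773 and 0.897, 4 twins). Pairs 1 to 6 differed from controls in 10643 of the 18091 genes kept, 7046 of them higher, and pairs 7 to 10 in 147. Calls in the first set were thus common. That set was defined by high array medians, and no fit with centred arrays was run within it. Centring the arrays left 0.32 ± 0.33 for Nat1 and 0.51 ± 0.47 for Nat2 over all pairs, and -0.036 ± 0.099 for Nat3.

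Co-twins come from the same embryo and differ in medium. Nat1 was higher in the GM501 twin in 9 of 10 pairs, with differences from -1.37 to 3.62 and a median of 1.60. Nat2 was higher in the GM501 twin in 8 of 10 pairs, from -2.26 to 3.37 with a median of 1.64. The 2 genes had the same sign in 9 of 10 pairs. Pair 3 was lower in GM501 for both, and pair 1 differed by 1.83 for Nat1 and -0.79 for Nat2. The widest gap was in pair 5, where Nat1 read 7.91 in GM501 against 4.29 in SAGE, and Nat2 8.09 in GM501 against 4.72 in SAGE.

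Within pairs the mean difference between media was 1.28 ± 0.38 for Nat1 and 1.26 ± 0.51 for Nat2 (log2 ± SE, 10 pairs), or 2.42-fold and 2.40-fold. The GM501 arrays are those on which the genes were picked, so these differences are a description with no test. limma called no gene between the media (0% of 18091 genes; 695 had an unadjusted p under 0.05), nor under any other setting run. In pairs 1 to 6 the differences were 1.66 ± 0.55 and 1.38 ± 0.79, and in pairs 7 to 10 they were 0.70 ± 0.28 and 1.09 ± 0.29. All 7 epiblast and inner cell mass markers also had higher means in GM501 twins than in their SAGE co-twins, with a median difference of 0.46 against 0.0070 over all genes, and 0 of them was called. That median was -0.0050 in pairs 1 to 6 and 0.82 in pairs 7 to 10, and its part in the Nat results was not tested.

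For Nat3 the difference between media was 0.13 ± 0.15 (log2 ± SE, 10 pairs; adjusted p = 1), with an interval from -0.20 to 0.46, and it was higher in the GM501 twin in 7 of 10 pairs.

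**Figure D2:**
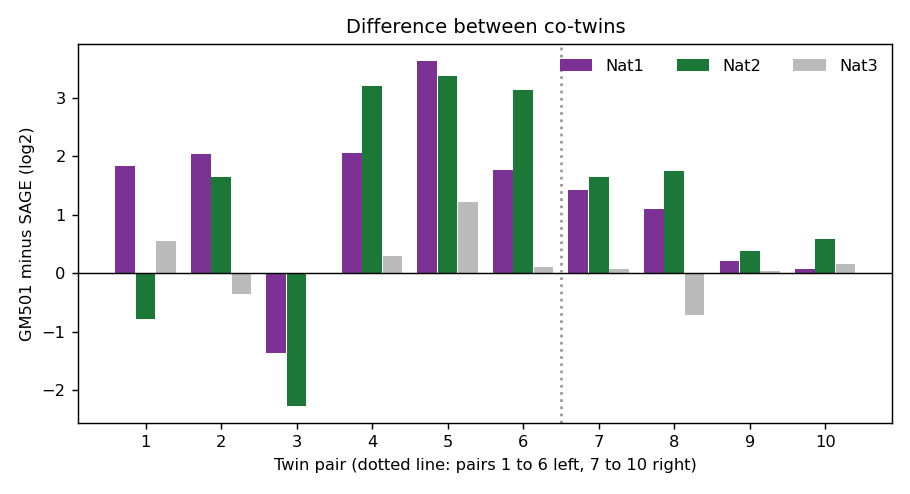
Difference between co-twins (GM501 minus SAGE, log2; vertical axis) for each twin pair (horizontal axis), with a bar for each of Nat1, Nat2 and Nat3. Nat1 is positive in 9 of 10 pairs and Nat2 in 8 of 10; pair 3 is negative for both, and Nat3 runs from -0.71 to 1.22.

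Whether the rows of Nat1 and Nat2 are separate signals was examined in the values, since neighbouring genes of 1 family can share probe targets and the probe sequences were not used here. The rows were equal on 0 of 30 arrays. Nat2 minus Nat1 ran from -2.04 to 3.53 across the arrays, so the rows were not shifted copies of each other. In the GM501 twin of pair 1, Nat1 read 6.84, above all 10 controls, while Nat2 read 4.80, as low as the lowest control. In the GM501 twin of pair 7 Nat2 read 7.17, above all controls, while Nat1 read 5.49, only just under the highest control of 5.58. Of 10 GM501 twins, 5 exceeded the highest control for both genes, 2 for Nat1 alone, 1 for Nat2 alone and 2 for neither. Among SAGE twins 3 exceeded it for both and 7 for neither. How far shared probes add to the rows was not tested.

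**Figure D3:**
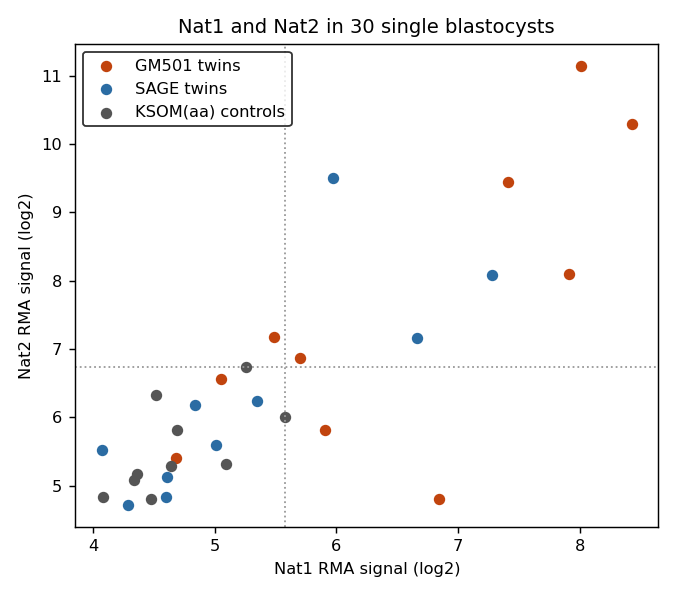
Nat2 against Nat1 (log2 RMA signals) in each of 30 blastocysts; dotted lines mark the highest control of each gene. Blastocysts above both lines are 5 GM501 twins and 3 SAGE twins, and the GM501 twin at 6.84 and 4.80 is high for Nat1 alone.

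The relation between Nat1 and Nat2 within a group was tested in SAGE twins. Their arrays lie outside the choice of the genes, though those of their co-twins do not. There Pearson's r was 0.79 (permutation p = 0.00843, adjusted over 21 relations 0.0590, n = 10) and Spearman's rho 0.88 (p = 0.00166, adjusted 0.0349), so rho passed and r did not. As a description, r was 0.75 in GM501 twins and 0.64 in controls, and rho was 0.71 and 0.77 (n = 10 each). Without the 2 samples farthest from the median of Nat1, r was 0.63 for GM501 twins, 0.85 for SAGE twins and 0.35 for controls, where it rested on those samples. Within pairs 1 to 6 r was 0.81 in GM501 twins and 0.73 in SAGE twins, of which the second was tested (exact permutation p = 0.107, adjusted over 15 relations 0.401, n = 6), and pairs 7 to 10 hold too few samples for a value.

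Nat3 varied with Nat1 in GM501 twins, at r = 0.86 (permutation p = 0.00305, adjusted 0.0320) and rho = 0.77 (p = 0.0132, adjusted 0.0694). Nat1 was picked on these arrays, so the p-values may carry that choice. With centred arrays that r was 0.77 and no longer passed (adjusted over 12 relations 0.0633), and within pairs 1 to 6 it was 0.45 (exact permutation p = 0.385, adjusted 0.538, n = 6). Nat1 with Nat3 had r = 0.42 in SAGE twins and 0.63 in controls, the second at -0.29 without the 2 farthest samples, and neither passed (adjusted permutation p = 0.296 and 0.116). Nat2 with Nat3 had r = 0.42 (GM501 twins), 0.62 (SAGE twins) and 0.65 (controls), none of which passed (adjusted permutation p = 0.296, 0.116 and 0.116). Nat3 was also set against the array median, with r = 0.76 in GM501 twins (adjusted p = 0.0627), 0.84 in SAGE twins (adjusted p = 0.0320) and 0.67 in controls (adjusted p = 0.116; permutation, n = 10 each). Spearman's rho for it was 0.71, 0.83 and 0.70, with adjusted permutation p of 0.0880, 0.0458 and 0.0880. Within pairs 1 to 6 this r was 0.022 in GM501 twins and 0.82 in SAGE twins (exact permutation p = 0.975 and 0.0708, n = 6). For Nat1 the relation to the array median had r of 0.59, 0.38 and 0.57, and for Nat2 0.14, 0.49 and 0.38, in GM501 twins, SAGE twins and controls, none of which passed (adjusted permutation p from 0.139 to 0.688). Pairs 1 to 6 had higher array medians and higher Nat1, and within them r with the median was -0.61 in GM501 twins and 0.11 in SAGE twins for Nat1, and -0.57 and 0.64 for Nat2 (exact permutation, adjusted p from 0.490 to 0.970, n = 6).

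Over 30 arrays, with each gene centred within its group, Nat1 and Nat2 correlated at 0.76. Among 18090 other genes, Nat1 was the gene most like Nat2, and Nat2 held rank 7 for Nat1. The arrays include those of GM501 twins, on which both genes were picked, so this likeness is a description. The 95th percentile over all genes was 0.57 for Nat1 and 0.45 for Nat2. The 5 named protein-coding genes nearest to Nat1 were Atg10, of autophagosome formation (r = 0.81), Ccdc160 (0.81), Mcur1, a regulator of mitochondrial calcium uptake (0.80), Defa26, a defensin (0.77), and Creg1 (0.77). After Nat1 itself, those nearest to Nat2 were Ly96, the partner of the endotoxin receptor (0.74), Brf2, a factor of RNA polymerase III (0.73), Tshz1, a zinc finger gene (0.71), and Zfp330 (0.70). Arrays are shared by all these genes, so the values describe this set of libraries. The difference between media in pairs was 0.094 ± 0.30 for Atg10 and 0.026 ± 0.75 for Ly96 (log2 ± SE), against 1.28 and 1.26 for Nat1 and Nat2. Over the genes named beside Nat1 and Nat2 it ran from -0.26 ± 0.19 for Creg1 to 0.38 ± 0.22 for Brf2. Unlike these, Nat1 and Nat2 were picked for high values on the GM501 arrays.

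Centring the arrays on their medians left r between Nat1 and Nat2 at 0.74 and put Nat2 at rank 4 for Nat1. Nat1 stayed at rank 1 for Nat2.

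Over all 10 twins of a group, the spread of Nat1 and Nat2 was wider than in controls. In GM501 twins the SD was 2.89 times that of controls for Nat1 and 3.26 times for Nat2, where the median over the genes kept was 1.78 times. These ratios exceeded those of 81.8% and 87.3% of genes. In SAGE twins the ratios were 2.26 and 2.35, against a median of 1.83, above those of 64.8% and 67.5% of genes. Nat3 had ratios of 2.35 in GM501 twins and 2.81 in SAGE twins. The wider spread of Nat1 and Nat2 was not seen within pairs 7 to 10 (4 twins per group). There the SD of Nat1 was 0.46 in GM501 twins and 0.33 in SAGE twins, against 0.47 in controls. That of Nat2 was 0.77 and 0.58, against 0.65. Within pairs 1 to 6 the SD was 0.92 and 1.10 for Nat1, and 2.52 and 1.74 for Nat2.

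Whether co-twins resembled each other was asked next. The GM501 arrays on which Nat1 and Nat2 were picked enter here, so p-values for these genes may carry that choice. With medium in the model, the embryo of origin passed limma's F test for Nat2 (F = 4.12, adjusted p = 0.0491) and did not for Nat1 (F = 2.74, adjusted p = 0.121) or Nat3 (F = 1.78, adjusted p = 0.257), where 26.4% of genes passed. The call for Nat2 was lost when any of 7 of the 10 pairs was left out, with adjusted p from 0.0506 to 0.249, and Nat1 passed without pair 3 (F = 4.82, adjusted p = 0.0413). The largest p for Nat2 came without pair 2, whose twins read 11.1 in GM501 and 9.50 in SAGE, the highest of their groups. Across 10 pairs the level in the GM501 twin correlated with that in its SAGE co-twin at r = 0.37 for Nat1 (permutation p = 0.289, adjusted 0.319), 0.55 for Nat2 (p = 0.101, adjusted 0.163) and 0.22 for Nat3 (p = 0.536, adjusted 0.563). Spearman's rho was 0.52, 0.38 and 0.079 (adjusted permutation p = 0.213, 0.345 and 0.837). Without the 2 pairs farthest from the median, r was 0.10 for Nat1, -0.083 for Nat2 and -0.44 for Nat3. Within pairs 1 to 6 r was -0.31 for Nat1, 0.42 for Nat2 and -0.42 for Nat3 (exact permutation p = 0.561, 0.394 and 0.383, n = 6).

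The genes around the family were examined for like differences. Of 11 other annotated genes that start within 500 kb of a member, 5 had a single-symbol cluster and 2 of these were kept for testing. Gm9755, a pseudogene that starts 23.0 kb from the start of Nat1, between Nat2 and Nat3, had differences from controls of -0.52 ± 0.24 in GM501 twins (adjusted p = 0.122) and -0.80 ± 0.24 in SAGE twins, where it was called lower (adjusted p = 0.0331). In pairs 7 to 10 its differences were 0.32 ± 0.15 in GM501 twins and -0.23 ± 0.22 in SAGE twins, so the sign turned in GM501 twins. Psd3, an exchange factor for the small GTPase ARF6, starts 198.1 kb away and differed by 0.26 ± 0.15 in GM501 twins and 0.28 ± 0.16 in SAGE twins (adjusted p = 0.197 and 0.190). The small RNA genes Gm24274 and Gm24677 and the long non-coding RNA Gm15991 were below the level of the genes kept, and differed by 0.40 ± 0.15, 0.33 ± 0.13 and 0.30 ± 0.092 in GM501 twins. Of these, Gm15991 was called higher in GM501 twins (adjusted p = 0.0360) and in SAGE twins, by 0.24 ± 0.086 (adjusted p = 0.0452; fit over all genes). In that fit 4244 of 30142 genes were called higher in GM501 twins and 5969 in SAGE twins. The median differences over all genes were 0.188 and 0.191, and Gm15991 averaged only 3.69 in GM501 twins and 3.38 in controls. Between media, within pairs, the 5 neighbours differed by -0.017 to 0.287 (adjusted p of 1 each).

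**Figure D4:**
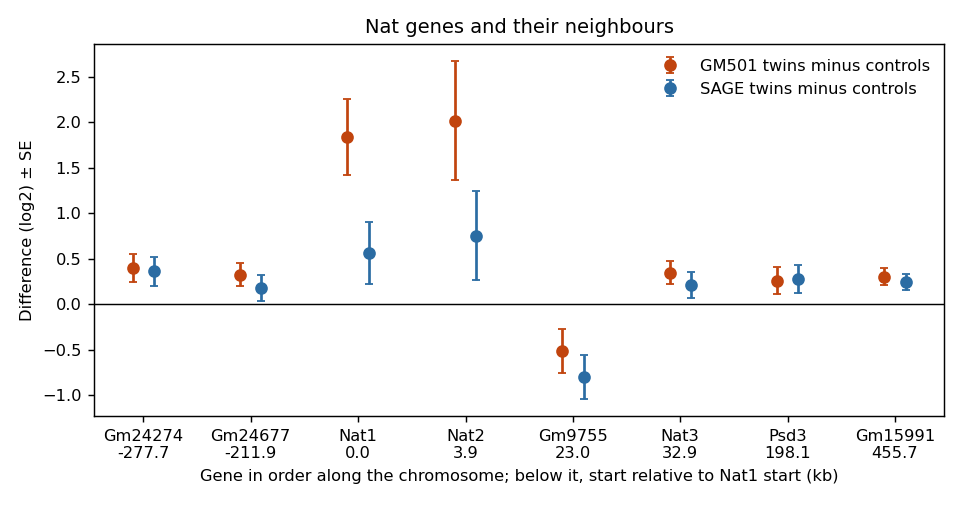
Difference from controls (log2 ± SE; vertical axis) of the Nat genes and the 5 measured neighbours within 500 kb, in chromosome order, for GM501 twins and SAGE twins; the start relative to the start of Nat1 stands under each name in kb. Nat1 and Nat2 stand at 1.84 and 2.02 in GM501 twins, and the row of Gm9755, a pseudogene annotated between Nat2 and Nat3, at -0.52.

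The reactions on either side of the family were followed in gene lists. Of 17 genes of the folate cycle and folate transport that were kept, 1 was called higher and 4 lower in GM501 twins than in controls, and 2 higher and 5 lower in SAGE twins. Over all genes 6.81% were higher and 6.97% lower in GM501 twins, and 7.5% and 8.63% in SAGE twins, and the counts of the other lists stand against the same shares. The list's median difference was -0.71 in GM501 twins and -0.81 in SAGE twins, where the median of all genes was 0.11 in each. Shmt2, the mitochondrial serine hydroxymethyltransferase, fell by 1.72 ± 0.43 in GM501 twins (limma adjusted p = 0.0196) and by 1.64 ± 0.38 in SAGE twins (adjusted p = 0.0128). The folate receptor gene Folr1 fell by 0.71 ± 0.19 in GM501 twins (adjusted p = 0.0228) and had a difference of -0.81 ± 0.29 in SAGE twins (adjusted p = 0.0554). Slc46a1, the proton-coupled folate transporter, fell by 0.71 ± 0.24 and 0.89 ± 0.21 (adjusted p = 0.0488 and 0.0137), in GM501 and SAGE twins. Mthfd1l, a mitochondrial formyltetrahydrofolate synthetase, fell by 1.02 ± 0.32 in GM501 twins (adjusted p = 0.0425), and Gart, of purine synthesis, by 0.90 ± 0.24 in SAGE twins (adjusted p = 0.0228). In pairs 7 to 10 none of the 17 was called in either twin group, and the medians were -0.016 and -0.20 in GM501 and SAGE twins.

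Among 11 genes of acetyl-CoA metabolism, 1 was called higher and 1 lower in GM501 twins, and 1 higher and 0 lower in SAGE twins, which is near the share over all genes. With centred arrays 3 were called lower in SAGE twins. Acat3, a cytosolic acetoacetyl-CoA thiolase, rose by 1.05 ± 0.15 in GM501 twins and by 1.00 ± 0.15 in SAGE twins (adjusted p = 0.000566 and 0.00213). It was called in pairs 7 to 10 as well, at 1.03 ± 0.15 and 1.16 ± 0.15. Pdhb, a subunit of pyruvate dehydrogenase, fell by 0.84 ± 0.24 in GM501 twins (adjusted p = 0.0298) and had a difference of -0.51 ± 0.18 in SAGE twins (adjusted p = 0.0516). In pairs 7 to 10 Pdhb lost its call in GM501 twins (-0.42 ± 0.11, adjusted p = 0.0729), and in SAGE twins it was called with centred arrays (-0.75, adjusted p = 0.0258). The medians of the list were -0.12 and -0.21.

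Other enzymes that conjugate foreign compounds were counted in the same way. Of 16 sulfo-, glucuronosyl-, glutathione and methyl transferases kept, 2 were called higher and 1 lower in GM501 twins, and 3 higher and 0 lower in SAGE twins, with medians of 0.17 and 0.13 where the median of all genes was 0.11. Tpmt, a thiopurine methyltransferase, rose by 0.92 ± 0.27 in GM501 twins and 0.97 ± 0.33 in SAGE twins (adjusted p = 0.0337 and 0.0481). The glutathione transferase genes went separate ways in GM501 twins, Gstp1 rising by 0.55 ± 0.18 and Gstz1 falling by 0.80 ± 0.17 (adjusted p = 0.0469 and 0.0106). Mgst1, a microsomal glutathione transferase, and the sulfotransferase gene Sult1a1 rose by 0.40 ± 0.093 and 0.41 ± 0.13 in SAGE twins (adjusted p = 0.0132 and 0.0414). None of the rises of these 4 genes (Tpmt, Gstp1, Mgst1, Sult1a1) was called with arrays centred on their medians, and none of the list was called in pairs 7 to 10.

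Only 3 genes of the aryl hydrocarbon receptor pathway and of arylamine activation were kept, with medians of -0.21 in GM501 twins and -0.036 in SAGE twins. Arnt, the partner of that receptor, fell by 0.66 ± 0.18 in SAGE twins (adjusted p = 0.0246) and differed by -0.59 ± 0.25 in GM501 twins (adjusted p = 0.0969). Arnt in pairs 7 to 10 differed by -0.13 ± 0.18 in SAGE twins (adjusted p = 0.765), so the call was lost. In 14 acetyltransferases of other families, 1 was called higher in GM501 twins and 1 lower in SAGE twins, near the share over all genes. Gnpnat1, which acetylates glucosamine phosphate, rose by 0.85 ± 0.25 in GM501 twins (adjusted p = 0.0311), a call lost with centred arrays, and Naa15, a subunit of the N-terminal acetyltransferase of proteins, fell by 0.84 ± 0.18 in SAGE twins (adjusted p = 0.0109). Both calls were lost in pairs 7 to 10, at 0.59 ± 0.23 for Gnpnat1 in GM501 twins and -0.38 ± 0.18 for Naa15 in SAGE twins (adjusted p = 0.235 and 0.306). The medians of this list were 0.034 in GM501 twins and 0.062 in SAGE twins. Both twin groups were set against the same 10 controls, so their values are not independent of each other. Between co-twins, none of the genes of these 5 lists was called.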

How the data were processed

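The authors deposited log2 signals for 65956 transcript clusters on 30 arrays, made with Affymetrix Expression Console and RMA on build mm10, per the submitters' processing notes; versions are not given in the sources used here. That the logarithm has base 2 was inferred from the range of the values, 2.2 to 19.3. Precision is limited by the number of arrays. Clusters were named from the platform annotation, with symbols updated by gene ID (GRCm38.p6): 30604 clusters carried 1 symbol, 2146 carried several and were not used. The cluster with the highest mean was taken per gene (30142 genes), and the upper 60% by mean were kept (18091 genes, log2 mean of at least 4.80).

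limma 3.58.1 in R 4.3.3 (lmFit, eBayes, two-sided, Benjamini-Hochberg over all genes in the fit, call at an adjusted p under 0.05) compared each twin group with controls, and the media within pairs. Nat1 and Nat2 have no test in comparisons that use the GM501 arrays on which they were picked, embryo of origin and correlations with other measures aside. The p-values of those exceptions may carry the choice of the genes. An F test in limma, with medium in the model, asked whether embryos of origin differed. Standard errors are moderated. Nat3 was fitted over all genes. The numbers of the twins pair them, since the labels say that equal numbers come from 1 embryo; those of controls do not. Correlations used 100000 permutations (scipy 1.17.1, two-sided), or all orders with 6 pairs. The fits were tested on simulated data.

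Members, lists and tests were chosen with earlier results of these data known. The genes named were the members, for Nat1 and Nat2 the 5 genes of highest correlation, leaving out predicted genes, Riken clones, pseudogenes and small RNAs, neighbours within 500 kb, and per list and comparison with controls up to 3 called genes of smallest p, or 1 where none was called. Mating and culture day are not given, so p-values cover the variation among these blastocysts alone. No 2 arrays were identical.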

Additional observations from a re-analysis of the deposited data

How the results depend on the processing

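The comparisons with controls depended most on which twins entered. Genes called in GM501 twins numbered 5757 with no filter on low values, 7912 with array weights, 239 in pairs 7 to 10, 10743 in pairs 1 to 6, and 1128 to 5272 with each replicate left out in turn. In SAGE twins these were 7911, 8876, 147, 10643 and 1312 to 6307. Nat1 in SAGE twins against controls passed with array weights (1.00, adjusted p = 0.0218) and in pairs 1 to 6 (1.06), and was -0.17 in pairs 7 to 10; Nat2 was 1.34 and -0.13 in those sets. Nat3 turned sign with centred arrays in SAGE twins (-0.036), in pairs 7 to 10 between media (-0.11) and in pairs 7 to 10 of GM501 twins against controls (-0.028). Each of these values of Nat3 was smaller than its SE. In GM501 twins against controls Nat3 passed with trend and robust (0.34, adjusted p = 0.0474), with array weights (0.44), in pairs 1 to 6 (0.59), and without replicate 7, 8, 9 or 10 of the GM501 twins, with a range over all left-out replicates of 0.29 to 0.41. Nat2 lost its call for embryo of origin with no filter (F = 4.06) and with centred arrays (F = 3.34); F ran from 1.95 to 7.75 over left-out pairs, and from 1.92 to 4.82 for Nat1, which passed without pair 3 alone (adjusted p = 0.0413). The correlation of Nat1 with Nat3 in GM501 twins lost its call with centred arrays (0.77, adjusted p = 0.0633) and in pairs 1 to 6 (0.45). Co-twin correlations turned to -0.16 for Nat3 with centred arrays, and in pairs 1 to 6, a setting chosen after seeing the data, to -0.42 for Nat3 and -0.31 for Nat1. The causes were not tested. Without the pair as a block, the difference between media was 1.27 ± 0.51 for Nat1 and 1.26 ± 0.78 for Nat2, with 0 genes called and 225 at an unadjusted p under 0.05; with embryo as a random block, 1705 genes were called in GM501 twins and 2092 in SAGE twins against controls, and the block changed no call of a member. No member had another single-symbol cluster to try, and Nat1 and Nat3 fall below the upper 40% of genes.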
